A study of Mus musculus with 5 samples.

Results

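The 7 genes described belong to the gamma-delta T cell receptor or mark the lineage that carries it, and they were followed here in CD4 single positive (SP) thymocytes, where 55487 genes were counted in all. They are the gamma constant genes *Tcrg-C1*, *Tcrg-C2* and *Tcrg-C4*, the delta constant gene *Trdc*, and the lineage genes *Sox13*, *Cd163l1* and *Blk*. The 7 genes were chosen by their role together with their levels in these same libraries, so their values are given as a description and without a test. The libraries came from 3 wild type (WT) mice and 2 *Tet2/3* DKO mice on the C57BL/6J background, with 1 library per mouse. WT cells came from unmodified mice, and *Tet2/3* DKO cells came from mice of genotype Tet2-/- Tet3flx/flx CD4cre, in which *Tet2* is lost in every cell and *Tet3* is lost only in cells that have switched on the *Cd4*-driven Cre, in the thymus from about the double positive stage. The mice were given as 21 to 30 days old. In both genotypes mature cells low in CD24 (HSA) were sorted from the thymus as CD4+ TCRb+ CD8- cells that did not bind the CD1d tetramer, so that alpha-beta T cells were taken and invariant NKT cells were left out. The question addressed is how the RNA of gamma-delta chains and lineage genes differs between the genotypes in cells sorted for the alpha-beta receptor.

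Gamma-delta T cells carry a receptor made of a gamma and a delta chain in place of the alpha and beta chains. Each chain is assembled by joining V and J segments (for delta also D segments) and is read out together with a constant gene, and the delta segments lie inside the alpha locus, so that a V to J alpha joining on a chromosome removes the delta constant gene from it. Transcripts of constant genes can also arise from loci that have not been rearranged. TET2 and TET3 oxidise 5-methylcytosine in DNA, a step towards its removal.

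Between 17607089 and 27267031 reads per library were counted on genes. *Tet3* had 47.3 ± 4.57 CPM (counts scaled to a library of a common size, given as CPM; SD, n = 3) in WT and 16.6 ± 4.83 CPM (SD, n = 2) in *Tet2/3* DKO cells, whereas the count over the whole *Tet2* gene was not lower and does not test the *Tet2* allele. The alpha-beta identity of the sort was borne by *Trac*, the alpha constant gene, at 2590.9 ± 142.2 CPM in WT and 2480.8 ± 396.1 CPM in *Tet2/3* DKO cells. The sex labels did not match the transcripts in 2 libraries. WT replicate 1 is labelled female, but *Xist*, the RNA of the inactive X chromosome, had 0 counts and 4 Y-linked genes together had 6821 counts. *Tet2/3* DKO replicate 1 is labelled male, but it had 744 *Xist* counts and 7 counts on the 4 Y-linked genes. The values of the 7 genes without this library therefore stand beside them. Of 31 other named genes past the threshold, all kept their direction without this library. Some of them passed the filter on low counts only through the *Tet2/3* DKO libraries or were picked for their pattern, so this was partly set by the choice. Passing the threshold is not read from that fit, where the lone remaining *Tet2/3* DKO library is assumed to vary like the WT libraries. The other 4 libraries all had Y-linked reads and almost no *Xist*. *Tet2/3* DKO replicate 1 also had the highest share of reads on no annotated gene, 5.70% against at most 3.72% in the other libraries.

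The gamma constant genes are near copies of each other, which bears on how reads are shared among them. They lie on chromosome 13 of mm10, *Tcrg-C1* (ENSMUSG00000076749) at chr13:19214103-19217024 on the plus strand, *Tcrg-C2* (ENSMUSG00000076752) at chr13:19304649-19307551 on the minus strand and *Tcrg-C4* (ENSMUSG00000076757) at chr13:19344558-19352756 on the plus strand. The first 90 bases of their coding sequence, from the GENCODE M21 transcripts, are shown because they let the degree of likeness be seen. Capitals mark bases that differ from *Tcrg-C1* at the same position. The windows are chr13:19214103-19214192 (plus strand), chr13:19307462-19307551 (minus strand), chr13:19260885-19260974 (plus strand) and chr13:19344558-19344647 (plus strand), in the order of the lines.
Tcrg-C1: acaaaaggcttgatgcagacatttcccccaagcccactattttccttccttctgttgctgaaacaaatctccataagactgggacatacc
Tcrg-C2: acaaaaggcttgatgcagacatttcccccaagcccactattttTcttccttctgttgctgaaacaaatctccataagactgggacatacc
Tcrg-C3: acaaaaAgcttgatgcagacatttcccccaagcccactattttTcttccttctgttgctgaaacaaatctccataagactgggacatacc
Tcrg-C4: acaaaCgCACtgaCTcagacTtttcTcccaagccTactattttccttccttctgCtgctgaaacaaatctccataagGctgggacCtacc
*Tcrg-C2* differed from *Tcrg-C1* at 1 of these 90 bases, *Tcrg-C3* at 2 and *Tcrg-C4* at 12. Over the aligned coding sequence *Tcrg-C1* and *Tcrg-C2* were 97.4% identical and *Tcrg-C1* and *Tcrg-C4* 82.0% identical. Of all stretches of 50 bases in the exons, 65.8% in *Tcrg-C1* and 74.6% in *Tcrg-C2* occurred in no other annotated gene, against 100% in *Tcrg-C4*. Reads that fit several places were not counted, so that reads of the shared stretches are missing from *Tcrg-C1*, *Tcrg-C2* and *Tcrg-C3* and from the sum of the constant genes, and the levels of these genes are undercounts. *Tcrg-C4* is not touched by this.

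RNA of all 3 gamma constant genes was higher in *Tet2/3* DKO than in WT CD4 SP cells, by 16.6-fold to 20.96-fold in mean CPM. *Tcrg-C1* had 109, 111 and 75 reads in the WT libraries (replicates 1 to 3) and 1241 and 1846 reads in the *Tet2/3* DKO libraries (replicates 1 and 2). This was 3.88 ± 1.02 CPM (SD, n = 3) against 81.2 ± 31.2 CPM (SD, n = 2), or 4.395 ± 0.28 (SE) as log2 fold change. The lowest *Tet2/3* DKO library was far above the highest WT library. *Tcrg-C2* had 186, 171 and 161 reads in WT libraries and 2215 and 2918 reads in *Tet2/3* DKO libraries, which was 6.76 ± 0.770 against 134 ± 40.8 CPM, or 4.32 ± 0.20 (SE) as log2 fold change. It was the most abundant of the 3 per length, with 7.39 CPM per kb of exon in WT and 147 CPM per kb in *Tet2/3* DKO cells. *Tcrg-C4*, with no stretch of 50 bases in common with another gene, had 131, 90 and 118 reads in WT libraries and 1076 and 1680 reads in *Tet2/3* DKO libraries. This was 4.39 ± 0.642 against 72.6 ± 30.2 CPM, or 4.04 ± 0.27 (SE) as log2 fold change. The difference was therefore also present in the constant gene with no shared stretches. Without *Tet2/3* DKO replicate 1 the log2 fold changes of *Tcrg-C1*, *Tcrg-C2* and *Tcrg-C4* were 4.75, 4.60 and 4.41.

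The 3 genes kept similar proportions to each other. *Tcrg-C2* made up 43.7%, 46.0% and 45.5% of their summed reads in WT replicates 1, 2 and 3, against 48.9% and 45.3% in *Tet2/3* DKO replicates 1 and 2. *Tcrg-C4* made up between 24.2% and 33.3% in WT, against 23.7% and 26.1% in *Tet2/3* DKO cells. Summed, the 3 genes had 426, 372 and 354 reads in WT libraries and 4532 and 6444 reads in *Tet2/3* DKO libraries. The sum was 15.02 ± 1.88 CPM (SD, n = 3) in WT and 288 ± 102 CPM (SD, n = 2) in *Tet2/3* DKO cells, 19.2-fold higher or 4.26 on the log2 scale. Without *Tet2/3* DKO replicate 1 it was 4.58, and without *Tet2/3* DKO replicate 2, the higher of the pair, it was 3.83. In these bulk samples more cells with gamma transcripts and more gamma RNA per cell cannot be told apart.

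**Figure D1:**
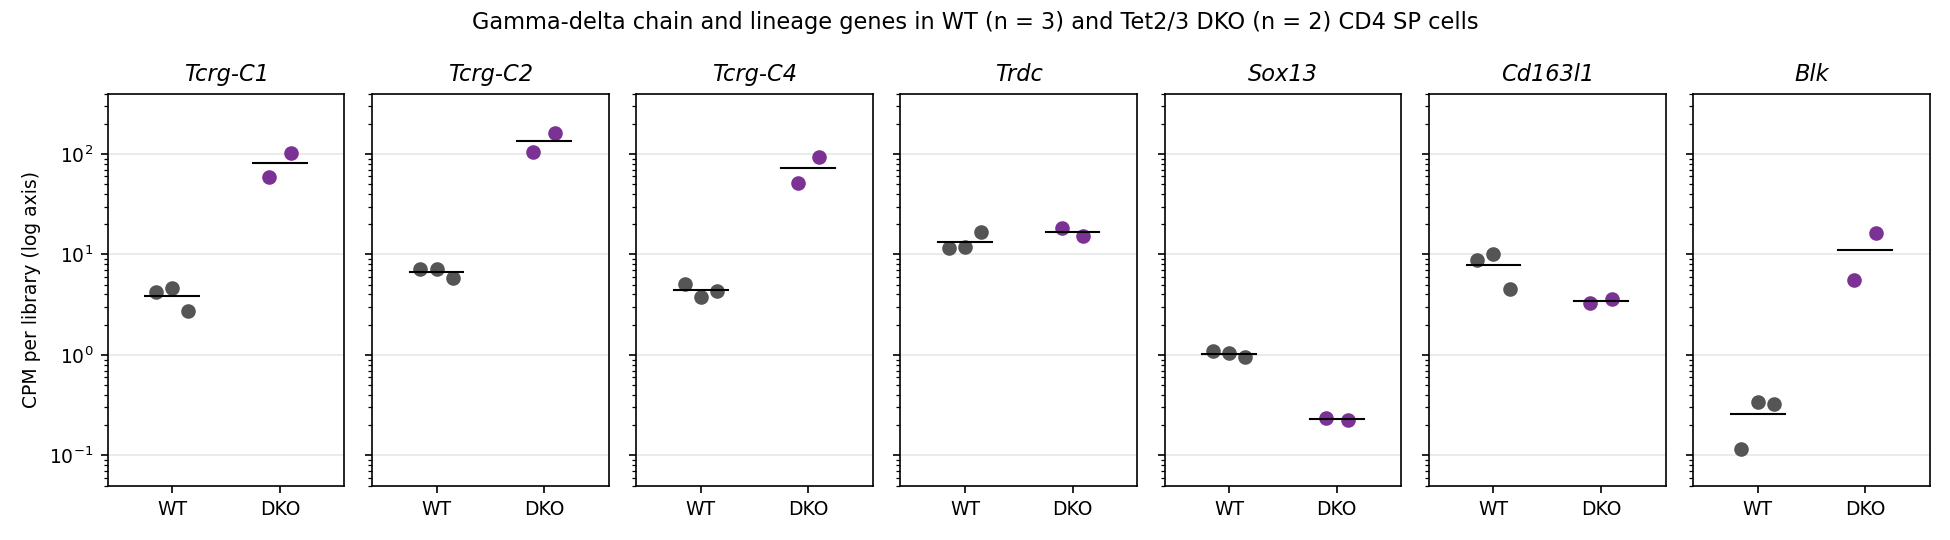
CPM (log axis) of the 7 genes in each library, with WT in grey (n = 3) and Tet2/3 DKO in purple (n = 2); each point is a library and the bar is the group mean. The gamma constant genes and Blk lie higher in both Tet2/3 DKO libraries, Sox13 and Cd163l1 lie lower, and the groups overlap for Trdc.

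The V and J segments of the gamma locus, whose reads come from the same transcripts or from the same chromosomal region and are no independent support, were read next. The locus spans 175 kb from *Tcrg-V7* to *Tcrg-C4*. Of the 12 gamma segment genes other than the 3 constant genes, 5 were tested, and 4 of these rose (adjusted p under 0.01 in edgeR's quasi-likelihood test) while none fell. Of the 5, *Tcrg-V4*, *Trgj4* and *Tcrg-C3* passed the filter on low counts only through the *Tet2/3* DKO libraries, where they are high, so that their direction was set by the filter and nothing is read from the count. *Trgv2* and *Tcrg-V1* also had enough reads in WT, and both rose. Over all 13525 genes tested 2.42% rose, 1.5% fell and 3.92% changed in either direction, with a median log2 fold change of 0.0076. *Trgv2*, a V segment on the minus strand like *Tcrg-C2*, had 44, 25 and 36 reads in WT libraries and 310 and 541 reads in *Tet2/3* DKO libraries, or 4.03 ± 0.37 (SE) as log2 fold change (adjusted p = 0.000315, edgeR). *Tcrg-V1*, a V segment close to *Tcrg-C4*, had 16, 12 and 14 reads in WT libraries and 123 and 228 reads in *Tet2/3* DKO libraries, or 4.05 ± 0.46 (SE) as log2 fold change (adjusted p = 0.00106, edgeR). The genotypes did not overlap in either segment.

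*Tcrg-V4*, the V segment of *Tcrg-C1* with most reads, had 4, 3 and 9 reads in WT libraries and 48 and 168 reads in *Tet2/3* DKO libraries, or 4.73 ± 0.81 (SE) as log2 fold change (adjusted p = 0.00670, edgeR, in a gene chosen by the filter for its *Tet2/3* DKO level). An antisense gene, *Gm31887*, covers 79 of its 426 exon bases, and reads there were counted for neither gene. With the columns for either strand added, *Tcrg-V4* had 17, 14 and 19 reads in WT libraries and 143 and 424 reads in *Tet2/3* DKO libraries. The J segment *Trgj4* had 0, 3 and 1 reads in WT libraries and 20 and 20 reads in *Tet2/3* DKO libraries. *Tcrg-C3*, the remaining constant gene, had 5, 0 and 3 reads in WT libraries and 17 and 28 reads in *Tet2/3* DKO libraries and missed the threshold (adjusted p = 0.0135, edgeR), which it passed without *Tet2/3* DKO replicate 1 (adjusted p = 0.00182, edgeR). The V segments known from fetal waves of gamma-delta T cells had few reads, with 2, 0 and 2 reads in WT libraries and 17 and 2 reads in *Tet2/3* DKO libraries for *Tcrg-V5*, and 4, 4 and 2 counts against 6 and 1 for *Tcrg-V6*. *Tcrg-V3* had 0, 0 and 3 reads in WT libraries and 4 and 4 reads in *Tet2/3* DKO libraries. These 3 segments were too low to be tested.

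The ratio of V reads to constant reads was similar in both genotypes. There were 23.7, 14.6 and 22.4 *Trgv2* reads per 100 *Tcrg-C2* reads in WT, against 14.0 and 18.5 in *Tet2/3* DKO cells. There were 12.2, 13.3 and 11.9 *Tcrg-V1* reads per 100 *Tcrg-C4* reads in WT, against 11.4 and 13.6 in *Tet2/3* DKO cells. The genotypes overlapped in the second ratio, and in the first only *Tet2/3* DKO replicate 1 lay below the WT range. Counts on genes do not show whether a V segment was joined to a J segment. Of the genes on the flanks of the locus, both chosen after their values were seen, *Stard3nl* had 61.4 ± 3.11 CPM in WT and 73.5 ± 2.44 CPM in *Tet2/3* DKO cells, or 0.26 ± 0.10 (SE) as log2 fold change, and did not pass the threshold (adjusted p = 0.150, edgeR). *Amph* had 0 reads in each WT library and 5 and 8 reads in the *Tet2/3* DKO libraries and was not tested. In 19.6% of all genes tested both *Tet2/3* DKO libraries lay above every WT library. Leaving out WT replicate 1, 2 or 3 left 2, 1 and 1 of the tested segments past the threshold, in fits that also called far fewer genes in all.

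**Figure D2:**
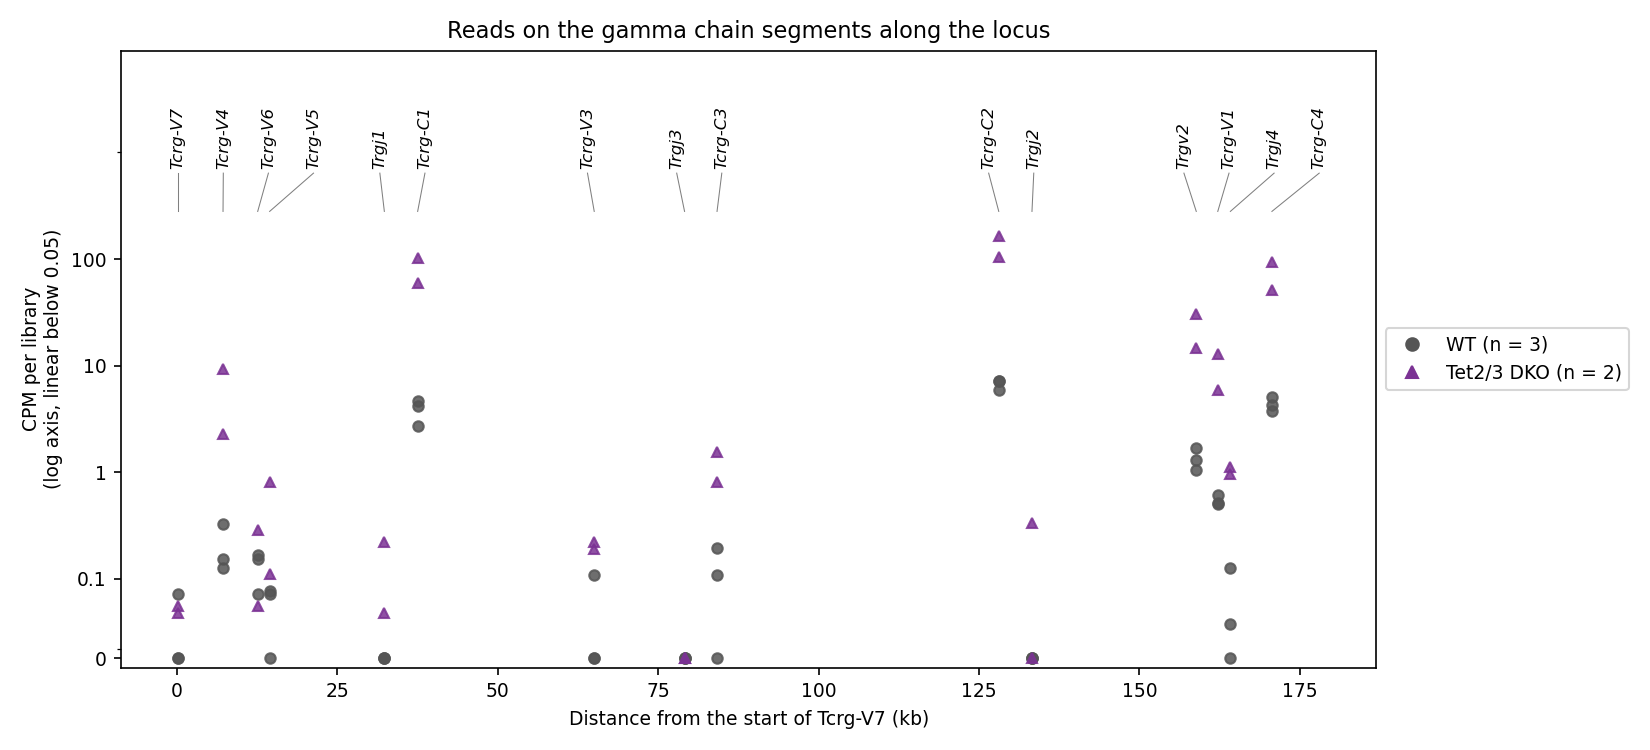
CPM per library (log axis, linear below 0.05) of each gamma chain segment at its distance in kb from the start of Tcrg-V7, with WT as grey circles (n = 3) and Tet2/3 DKO as purple triangles (n = 2). Higher Tet2/3 DKO values are seen at Tcrg-V4, Tcrg-C1, Tcrg-C3, Tcrg-C2, Trgv2, Tcrg-V1, Trgj4 and Tcrg-C4 and, at very low levels, at Tcrg-V3, Tcrg-V5 and Trgj1, while Tcrg-V7, Tcrg-V6, Trgj2 and Trgj3 do not separate the genotypes.

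The delta constant gene did not share this difference. *Trdc* (ENSMUSG00000104876, chr14:54142851-54148868, plus strand, mm10) had 302, 279 and 457 reads in WT libraries and 384 and 273 reads in *Tet2/3* DKO libraries. This was 13.4 ± 2.85 CPM (SD, n = 3) against 16.8 ± 2.14 CPM (SD, n = 2), or 0.33 ± 0.20 (SE) as log2 fold change. The groups overlapped, since WT replicate 3 at 16.7 CPM lay above *Tet2/3* DKO replicate 2 at 15.3 CPM. Between 44.3% and 47.8% of the reads touching *Trdc* exons were left out of this count, since antisense genes overlap the exons, *Gm43434* over 96 and *Trdv5* over 207 of 3865 exon bases. The library kit does not mark strand, so these reads cannot be given to either gene. With the columns for either strand added, *Trdc* had 578, 526 and 830 reads in WT libraries and 689 and 497 reads in *Tet2/3* DKO libraries, or 0.29 ± 0.17 (SE) as log2 fold change. On the unstranded counts it was 0.18 without *Tet2/3* DKO replicate 1.

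The summed gamma constant genes had more reads than *Trdc* in both *Tet2/3* DKO libraries, and in WT, where the gamma sum is also an undercount, the order depended on the overlapped reads. On the unstranded counts they had more reads than *Trdc* in WT replicates 1 and 2 (426 against 302 and 372 against 279) and fewer in replicate 3 (354 against 457). With the columns for either strand added there were 0.737, 0.707 and 0.427 gamma reads per *Trdc* read in WT replicates 1, 2 and 3, against 6.59 and 12.98 in *Tet2/3* DKO replicates 1 and 2. Per 1000 *Trac* reads there were 6.21, 6.45 and 4.79 gamma reads in WT, against 78.3 and 164 in *Tet2/3* DKO cells. On this scale *Trdc*, with the columns for either strand added, had 8.43, 9.13 and 11.2 reads in WT, against 11.9 and 12.6. Both *Tet2/3* DKO libraries thus lay above every WT library per *Trac* read, also on the unstranded counts, while in CPM the groups overlapped. Per length the order in WT depended on the overlapped *Trdc* reads, and *Tcrg-C1* and *Tcrg-C2* are undercounts as described above. On the unstranded counts *Trdc* had 3.46 CPM per kb of exon in WT and 4.34 CPM per kb in *Tet2/3* DKO cells, below *Tcrg-C4* at 4.45 and 73.8 CPM per kb and *Tcrg-C1* at 4.19 and 87.9 CPM per kb. With the columns for either strand added *Trdc* had 6.45 ± 1.19 CPM per kb in WT, above *Tcrg-C1* and *Tcrg-C4* and below *Tcrg-C2*, and 7.85 ± 0.922 CPM per kb in *Tet2/3* DKO cells, still below all 3.

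Of 10 delta segment genes 2 had enough reads to be tested, and 0 changed in edgeR (0 also at an unadjusted p under 0.05, and 0 with DESeq2). *Trdv1* had 65, 63 and 78 reads in WT libraries and 49 and 36 reads in *Tet2/3* DKO libraries, that is -0.29 as log2 fold change (adjusted p = 0.619, edgeR). *Trdv2-2*, the V segment used most in the delta clonotypes, had 55, 62 and 93 reads in WT libraries and 100 and 38 reads in *Tet2/3* DKO libraries, that is 0.37 as log2 fold change (adjusted p = 0.621, edgeR) that became -0.36 without *Tet2/3* DKO replicate 1. An antisense gene overlaps it too, and with the columns for either strand added it had 120, 124 and 176 reads in WT, against 174 and 90. *Trdj1* had 4, 1 and 6 reads in WT libraries and 1 and 2 reads in *Tet2/3* DKO libraries and was not tested. The delta constant gene and its segments thus gave values of the same order in both genotypes.

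Rearranged delta chains could be read directly, because the deposited alpha clonotype tables also hold chains joined to a delta J segment (TRDJ). These tables come from the same libraries but from assembled receptor sequences. Clonotypes with a delta J segment had 40 of 10999 reads in WT replicate 1, 26 of 8944 in replicate 2 and 54 of 11215 in replicate 3. In *Tet2/3* DKO cells they had 47 of 9758 reads in replicate 1 and 32 of 6401 in replicate 2. The shares were 0.364%, 0.291% and 0.481% in WT, against 0.482% and 0.500% in *Tet2/3* DKO cells, with 95% Wilson intervals from 0.198% to 0.628% over the WT libraries and from 0.354% to 0.705% over the *Tet2/3* DKO libraries. The means were 0.379 ± 0.0963% (SD, n = 3) and 0.491 ± 0.0129% (SD, n = 2). Both *Tet2/3* DKO libraries lay at or above every WT library, and WT replicate 3 and *Tet2/3* DKO replicate 1 had nearly equal shares. The intervals of all *Tet2/3* DKO libraries overlapped those of WT libraries, which does not compare the genotypes. No difference on the scale of that in gamma RNA was seen. Reads are not marked by molecule, so the intervals cover counting error only.

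**Figure D3:**
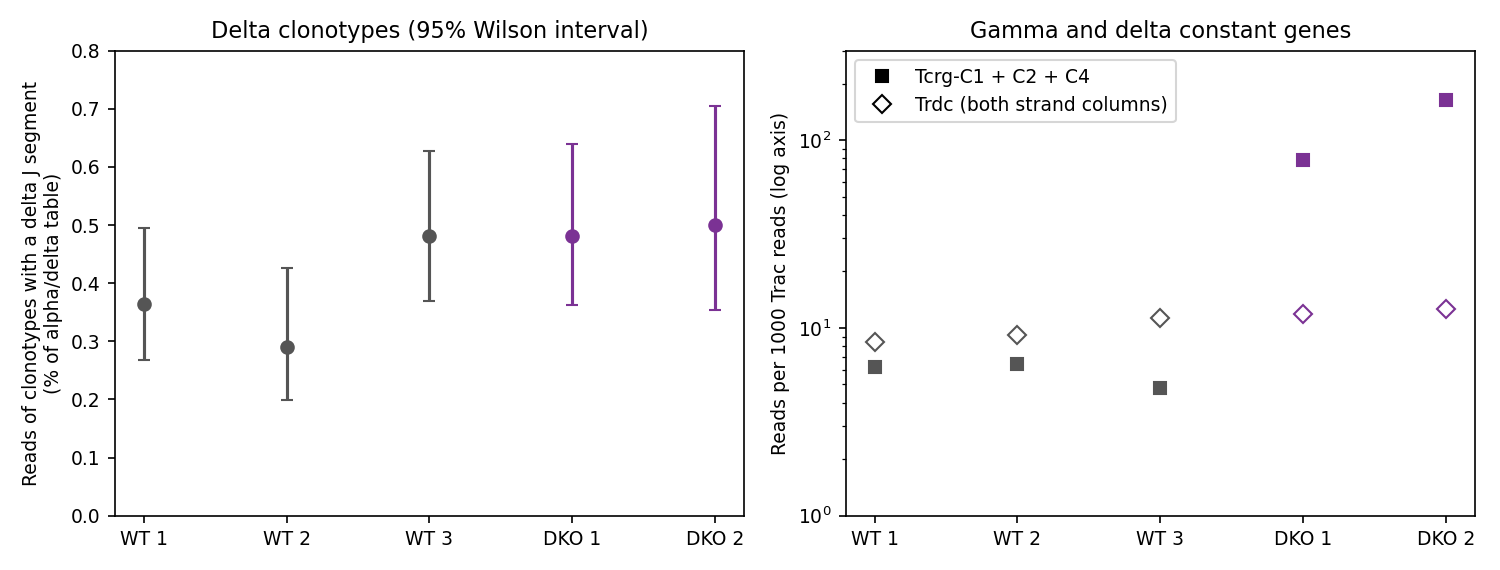
Left, reads of clonotypes with a delta J segment as a percentage of all reads in the alpha and delta clonotype table of each library, with 95% Wilson intervals. Right, reads on the summed Tcrg-C1, Tcrg-C2 and Tcrg-C4 genes (filled squares) and on Trdc (open diamonds) per 1000 Trac reads on a log axis. WT libraries are grey and Tet2/3 DKO libraries are purple; the delta values of the genotypes lie close together while the gamma values are at most 6.45 in WT and at least 78.3 in Tet2/3 DKO libraries.

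The delta chains were many and small. There were 36, 21 and 44 delta clonotypes in WT, against 43 and 27 in *Tet2/3* DKO cells, and the largest of any library had 3 reads. The largest other clonotype in the same tables had 15, 16 and 32 reads in WT and 241 and 246 reads in *Tet2/3* DKO cells. None of the 171 delta CDR3 sequences occurred in more than 1 library. *TRDJ1* was the J segment in 170 of 171, and *TRDV2-2* was the most frequent V segment, in 41 WT and 30 *Tet2/3* DKO clonotypes. Of the delta clonotypes 29 of 36, 18 of 21 and 38 of 44 were in frame in WT, and 33 of 43 and 20 of 27 in *Tet2/3* DKO cells. A TRDV segment joined to an alpha J segment took 0.391%, 0.548% and 0.642% of the reads in WT, against 0.400% and 0.344% in *Tet2/3* DKO cells.

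A delta CDR3 of each library with 2 reads is shown because the length between the V and the J segment shows how these chains were joined. Each sequence runs 5′ to 3′ from the conserved cysteine, and capitals mark the bases between the end of the V and the start of the J segment, which come from D segments or were added.
WT replicate 1: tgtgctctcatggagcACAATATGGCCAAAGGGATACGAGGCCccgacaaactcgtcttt
WT replicate 2: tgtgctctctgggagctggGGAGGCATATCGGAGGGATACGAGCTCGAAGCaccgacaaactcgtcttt
WT replicate 3: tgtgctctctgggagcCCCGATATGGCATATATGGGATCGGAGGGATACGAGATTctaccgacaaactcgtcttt
Tet2/3 DKO replicate 1: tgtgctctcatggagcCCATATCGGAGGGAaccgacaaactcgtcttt
Tet2/3 DKO replicate 2: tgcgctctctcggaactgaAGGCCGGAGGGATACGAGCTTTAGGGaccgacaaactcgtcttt
All 5 were joined to *TRDJ1*, and 27, 32, 39, 14 and 26 bases, in the order of the lines, separated V from J. Only in-frame clonotypes assigned to the delta constant gene could be chosen, so that lying in frame was set by the choice. The median CDR3 length of the delta clonotypes was 54, 57 and 57 bases in WT and 54 and 54 bases in *Tet2/3* DKO cells.

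The 3 lineage genes did not move together. *Sox13*, an HMG-box transcription factor of the early gamma-delta lineage (ENSMUSG00000070643, chr1:133382303-133424377, minus strand), was lower in *Tet2/3* DKO cells. It had 28, 25 and 26 reads in WT libraries and 5 and 4 reads in *Tet2/3* DKO libraries, which was 1.03 ± 0.0713 against 0.231 ± 0.0103 CPM, or -2.12 ± 0.52 (SE) as log2 fold change. It was 4.45-fold lower in mean CPM. The counts did not overlap between the genotypes, and in 19.5% of all genes tested both *Tet2/3* DKO libraries lay below every WT library. At counts this low, closeness within a genotype is no measure of precision. The log2 fold change was -2.17 without *Tet2/3* DKO replicate 1.

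*Cd163l1*, a scavenger receptor family member (SCART1) carried by gamma-delta T cells (ENSMUSG00000025461, chr7:140218267-140231145, plus strand), was also lower. It had 226, 242 and 123 reads in WT libraries and 69 and 64 reads in *Tet2/3* DKO libraries, which was 7.81 ± 2.97 against 3.44 ± 0.206 CPM, or -1.17 ± 0.38 (SE) as log2 fold change. WT replicate 3, at 4.48 CPM, lay close to the *Tet2/3* DKO libraries at 3.29 and 3.58 CPM. The log2 fold change was -1.11 without *Tet2/3* DKO replicate 1. Its neighbour *5830411N06Rik* (SCART2), a gene of the same family that starts 16139 bases beyond the end of *Cd163l1*, went the other way. It had 185, 146 and 74 reads in WT libraries and 465 and 365 reads in *Tet2/3* DKO libraries, or 2.01 ± 0.29 (SE) as log2 fold change (adjusted p = 0.00302, edgeR). There were 0.819, 0.603 and 0.602 *5830411N06Rik* reads per *Cd163l1* read in WT, against 6.74 and 5.70 in *Tet2/3* DKO cells. No stretch of 50 bases in either gene occurred in another annotated gene, and WT replicate 3 was the lowest WT library for both. The rise of *5830411N06Rik* missed the threshold in fits without WT replicate 1 (adjusted p = 0.0105, edgeR) or WT replicate 2 (adjusted p = 0.0310, edgeR), and on the first strand column alone (adjusted p = 0.0188, edgeR).

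*Blk*, a Src family kinase known from B cells and from gamma-delta T cells that make IL-17 (ENSMUSG00000014453, chr14:63372836-63417037, minus strand), had the largest fold difference of the 7 genes. It had 3, 8 and 9 reads in WT libraries and 116 and 295 reads in *Tet2/3* DKO libraries, which was 0.260 ± 0.125 against 11.02 ± 7.76 CPM, or 5.34 ± 0.68 (SE) as log2 fold change. It was nearly silent in WT, and the *Tet2/3* DKO libraries lay apart from each other at 5.53 and 16.5 CPM, with a log2 fold change of 5.96 if replicate 1 was left out and of 4.37 if replicate 2 was. Of the 6 other tested Src family kinases 1 rose and none fell (edgeR, adjusted p under 0.01). That was *Lyn*, a kinase of B and myeloid cells, with 0, 12 and 13 reads in WT libraries and 70 and 104 reads in *Tet2/3* DKO libraries (adjusted p = 0.00387, edgeR, and 0.104 with DESeq2). Its adjusted p in edgeR was 0.0145, 0.0336 and 0.0303 with WT replicate 1, 2 or 3 left out. *Lck*, the main kinase of the T cell receptor, had a log2 fold change of -0.19 (adjusted p = 0.198, edgeR).

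Because *Blk* and *Lyn* are also B cell genes, the B cell markers were read beside them. Of the 9 markers reported here 6 were tested, 1 rose and none fell, and 2 rose without *Tet2/3* DKO replicate 1. The one that rose, *Ighm*, had 12931 to 16415 reads in WT, against 21344 and 21804 in *Tet2/3* DKO libraries. Its call was lost with WT replicate 2 or 3 left out (adjusted p = 0.0142 and 0.0139, edgeR). The *Ighm* constant region can be transcribed in T cells without a rearranged chain. The other markers differed in direction. *Cd79b*, a chain of the B cell receptor complex, had 93, 99 and 101 reads in WT, against 154 and 95 in *Tet2/3* DKO libraries, and its partner *Cd79a* had 45, 48 and 87 reads against 32 and 25. *Cd22*, a B cell lectin, had 2, 7 and 10 reads in WT, against 13 and 30 in *Tet2/3* DKO libraries, and *Blnk*, an adaptor of the receptor, had 16, 17 and 30 against 9 and 12. *Igkc*, the kappa light chain, had 33, 13 and 12 reads against 4 and 54, *Ebf1* 3, 1 and 2 against 0 and 14, *Ms4a1* 2, 7 and 2 against 0 and 7, and *Pax5* 0, 0 and 1 against 0 and 8. *Tet2/3* DKO replicate 2 had the most *Cd22*, *Igkc*, *Ebf1*, *Pax5* and *Blk* reads, and replicate 1 the most *Cd79b* reads. The part of B cells in the *Blk* values was not tested. The summed level of the 9 markers, nearly all of it *Ighm*, was 553 to 642 CPM in WT and 1028 and 1234 CPM in *Tet2/3* DKO cells.

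Taking the 7 genes as a set, all 7 were tested (*Blk* passed the filter on low counts only through the *Tet2/3* DKO libraries), 4 were past the threshold with higher values in *Tet2/3* DKO cells (*Tcrg-C1*, *Tcrg-C2*, *Tcrg-C4* and *Blk*) and none with lower values, beside 3.92% of all genes. In 4 of 7 both *Tet2/3* DKO libraries lay above every WT library, beside 19.6% of all genes, and in 2 of 7 (*Sox13* and *Cd163l1*) both lay below, as in 19.5% of all genes. Since the genes were selected on this comparison, nothing is read from these counts.

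Other genes of the gamma-delta lineage were counted from lists. Of 11 transcription factors of gamma-delta development 2 rose and 2 fell, with a median log2 fold change of 0.19. *Zbtb16*, the factor PLZF of innate-like T cells, had 32, 13 and 24 reads in WT libraries and 251 and 253 reads in *Tet2/3* DKO libraries, or 3.85 ± 0.29 (SE) as log2 fold change (adjusted p = 8.6e-05, edgeR). *Maf*, a factor of IL-17-producing cells, rose by 3.09 on the log2 scale (adjusted p = 0.00652, edgeR). *Lef1* (log2 fold change -0.60, adjusted p = 0.00611, edgeR) and *Tcf7* (log2 fold change -0.56, adjusted p = 0.00741, edgeR), both HMG-box factors as *Sox13* is, fell to a smaller extent. With WT replicate 1, 2 or 3 left out, 1 factor rose and none fell in each fit, and 3 rose and 2 fell without *Tet2/3* DKO replicate 1.

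Of 10 tested genes of IL-17-type gamma-delta cells 4 rose and 1 fell. *Il1r1*, *Il23r* and *Il17f* passed the filter on low counts only through the *Tet2/3* DKO libraries, so that nothing is read from this count. Of the other 7, *Tmem176a* and *5830411N06Rik* rose and *Ccr6* fell. *Il17re*, a receptor chain for IL-17 family cytokines, had 15, 17 and 6 reads in WT, against 45 and 57 in *Tet2/3* DKO libraries, and did not pass the threshold (log2 fold change 2.40, adjusted p = 0.0115, edgeR). Neither did *Tmem176b* (0.67), *Cd44* (0.59) and *Ramp1* (-0.08 on the log2 scale). *Il23r* and *Il1r1* are receptors for cytokines that drive IL-17. *Il23r* had 6, 5 and 0 reads in WT libraries and 38 and 105 reads in *Tet2/3* DKO libraries, and *Il1r1* had 3, 0 and 0 reads in WT libraries and 21 and 20 reads in *Tet2/3* DKO libraries. *Ccr6*, the chemokine receptor of these cells, fell by 2.21 on the log2 scale, from 478, 494 and 566 counts to 80 and 87 (adjusted p = 0.000206, edgeR). *Il17a* itself had 0, 0 and 1 reads in WT libraries and 9 and 0 reads in *Tet2/3* DKO libraries. The number that rose was 0, 0 and 1 without WT replicate 1, 2 and 3, and 6 without *Tet2/3* DKO replicate 1.

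Of 7 genes of IFN-gamma-type gamma-delta cells 3 rose and none fell, with a median log2 fold change of 1.87. *Eomes*, a T-box factor of cytotoxic cells, went from 46, 49 and 72 counts in WT to 1704 and 1658 in *Tet2/3* DKO cells, or 5.32 ± 0.16 (SE) as log2 fold change (adjusted p = 1.0e-06, edgeR). *Klrd1*, the NK receptor chain CD94, rose by 2.59 (adjusted p = 0.000756, edgeR) and *Xcl1*, a chemokine, by 2.23 on the log2 scale (adjusted p = 0.00614, edgeR). These genes are shared with cytotoxic and NK cells. Without WT replicate 1, 2 and 3 the number that rose was 2, 1 and 1, and it was 6 without *Tet2/3* DKO replicate 1.

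Over all genes tested 2.42% rose and 1.5% fell, so that most genes did not pass the threshold. Of 14 tested factors known to act on the gamma locus 1 rose and none fell in edgeR (2 and 4 at an unadjusted p under 0.05, and 1 and 2 with DESeq2), with a median log2 fold change of -0.083. It was *Myb*, with 105, 93 and 91 reads in WT libraries and 219 and 197 reads in *Tet2/3* DKO libraries, or 1.51 ± 0.20 (SE) as log2 fold change (adjusted p = 0.00204, edgeR), which missed the threshold with WT replicate 1, 2 or 3 left out (adjusted p = 0.0167, 0.0228 and 0.0206, edgeR). The IL-7 receptor *Il7r*, whose signal through STAT5 opens the gamma locus in early thymocytes, had a log2 fold change of -0.29 ± 0.08 (SE; adjusted p = 0.0608, edgeR, and 0.00760 with DESeq2). Of 7 alpha-beta receptor chain and CD3 genes tested 0 changed in edgeR (1 higher and 1 lower at an unadjusted p under 0.05, and 1 lower with DESeq2), with a median log2 fold change of 0.039. In edgeR without the filter on low counts 1 was lower. *Cd247*, the CD3 zeta chain gene, lay nearest the threshold in the main fit, with a log2 fold change of -0.46 ± 0.09 (SE; adjusted p = 0.0134, edgeR). *Trac* had a log2 fold change of -0.06 (adjusted p = 0.795, edgeR). Without *Tet2/3* DKO replicate 1, 2 factors of the gamma locus rose and 1 fell, and 1 alpha-beta receptor chain or CD3 gene fell.

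**Figure D4:**
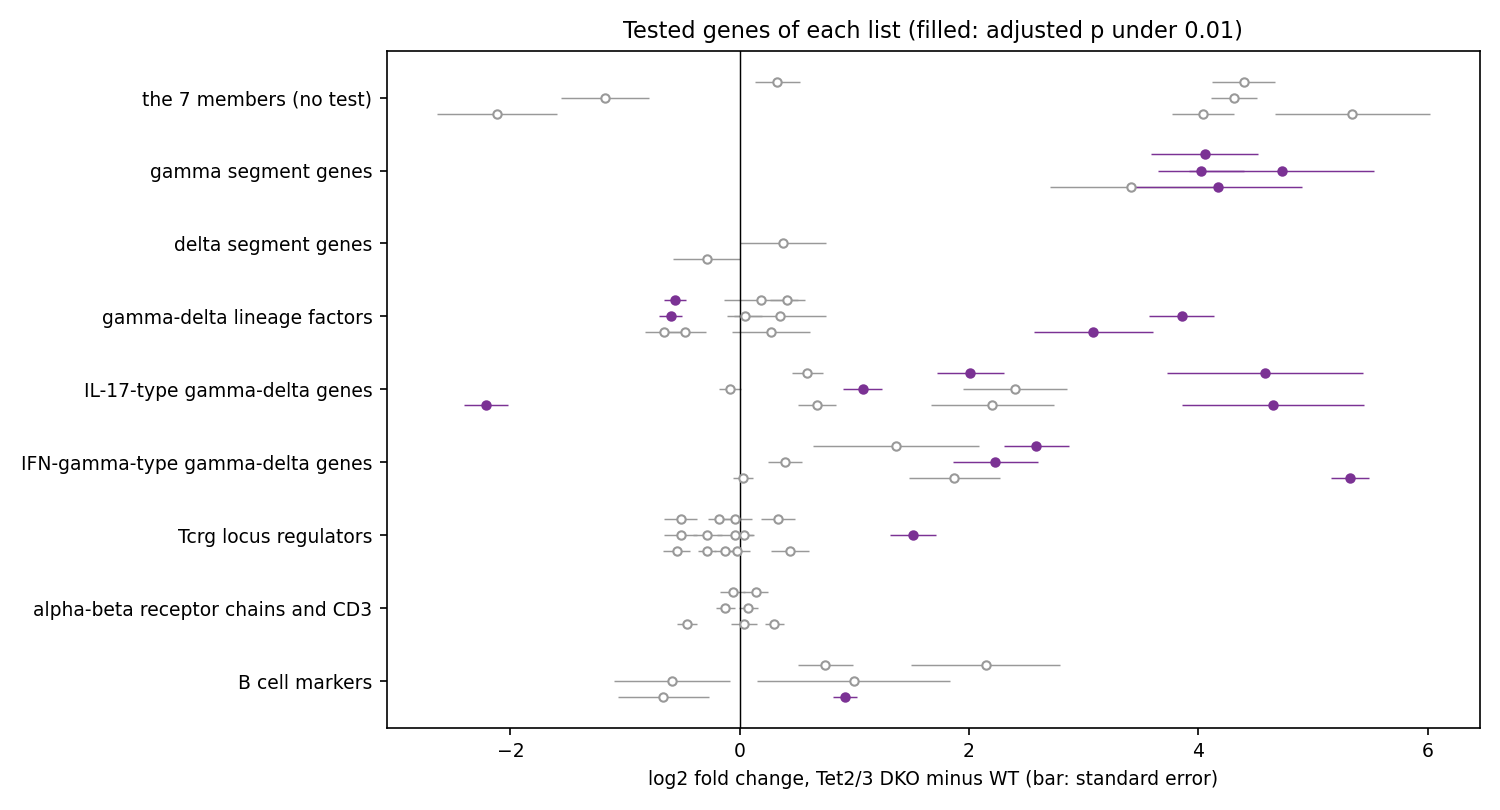
Log2 fold change (Tet2/3 DKO minus WT) of every tested gene of 8 lists and of the 7 genes described, with bars for the standard error. Filled purple points passed an adjusted p of 0.01 in edgeR and open grey points did not, and the 7 genes carry no test. Trgv2 and Tcrg-V1 lie near 4, and the other 3 gamma segments passed the filter on low counts only through the Tet2/3 DKO libraries. The delta segments and the alpha-beta receptor chain and CD3 genes lie between -0.46 (Cd247) and 0.37 (Trdv2-2).

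Markers of other cells that the sort could hold were read in the same fit. Of 5 markers of CD8 and NK cells 3 rose and 1 fell, with a summed level of 97.2 to 116 CPM in WT and 337 and 578 CPM in *Tet2/3* DKO cells. *Nkg7*, a gene of cytotoxic granules, rose by 3.74 and *Klrb1c*, the NK receptor NK1.1, by 2.699 on the log2 scale (adjusted p = 3.1e-05 and 0.00513, edgeR), while *Cd8b1*, the CD8 beta chain gene, which the double positive precursors of CD4 SP cells also express, fell by 1.29 (adjusted p = 0.000168, edgeR). *Cd8a* went the other way, with 2.71, 2.91 and 5.39 CPM in WT, against 5.77 and 8.67 CPM in *Tet2/3* DKO cells, and did not pass the threshold (log2 fold change 0.94, adjusted p = 0.128, edgeR). The remaining gene that rose, *Ncr1*, passed the filter on low counts only through the *Tet2/3* DKO libraries. Of 5 myeloid markers 3 were tested and 0 changed in edgeR (2 higher at an unadjusted p under 0.05, and 0 with DESeq2), with *Lyz2* at a log2 fold change of 1.76 (adjusted p = 0.0142, edgeR) and a summed level of 6.16 to 11.7 CPM in WT and 20.98 and 44.6 CPM in *Tet2/3* DKO cells. *Csf1r* had 7, 2 and 1 reads in WT, against 15 and 19 in *Tet2/3* DKO libraries (adjusted p = 0.0294, edgeR). It passed the filter on low counts only through the *Tet2/3* DKO libraries, and with the columns for either strand added it had 119, 70 and 107 reads in WT, against 106 and 77. *Adgre1* had 0, 4 and 1 reads against 25 and 7. *Itgam* had 15, 15 and 7 reads against 10 and 11, and *Cd14* had 2, 0 and 0 reads against 0 and 1. Of 7 CD4 SP markers none rose and 3 fell, namely *Cd4*, *Cd5* and *Zbtb7b*, with summed levels of 7189 to 7539 CPM in WT and 6387 and 7075 CPM in *Tet2/3* DKO cells. With WT replicate 1, 2 or 3 left out, 1 of the CD8 and NK cell markers rose in each fit and 2, 1 and 1 of the CD4 SP markers fell. Without *Tet2/3* DKO replicate 1, 3 CD8 and NK cell markers rose and 1 fell, 1 myeloid marker rose, and 3 CD4 SP markers fell. Like the gamma constant genes, *Nkg7* (6180 and 9327 reads), *Lyz2* (390 and 759 reads), *Klrb1c*, *Cd8a* and *Ncr1* were higher in *Tet2/3* DKO replicate 2 than in replicate 1. *Cd8b1* (599 and 484 reads) and *Adgre1* (25 and 7 reads) were lower in replicate 2, and *Itgam* and *Cd14* hardly differed. The part of such cells in the gamma values was not tested.

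The genes with the closest pattern over the 5 libraries were found by the root mean square difference of centred log2 CPM, as a description. For the summed gamma constant genes these were *1700016L21Rik* (0.0864), *Ncr1* (0.160), the NK cell receptor NKp46, and *BC035044* (0.169). In WT the level of *Ncr1* is set mostly by the prior count of 2, so that its closeness rests on that setting. *1700016L21Rik* had 15, 12 and 13 reads in WT libraries and 199 and 253 reads in *Tet2/3* DKO libraries, and *Ncr1* had 1, 0 and 0 reads in WT libraries and 31 and 40 reads in *Tet2/3* DKO libraries. For *Sox13* they were *Apol9b* (0.0776), *Tmcc3* (0.112) and *Ecm1* (0.117). With 5 and 4 *Sox13* reads in *Tet2/3* DKO libraries, this closeness also rests in part on the prior count. The log2 fold changes of the 3 were -1.91, -1.83 and -1.69, against -2.12 for *Sox13*. *Ecm1*, an extracellular matrix protein gene also expressed by T cells, had 4237, 3981 and 4723 reads in WT libraries and 1189 and 840 reads in *Tet2/3* DKO libraries.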

How the data were processed

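RNA of sorted CD4 SP thymocytes was sequenced with SMART-seq chemistry, 1 library for each of 3 WT and 2 *Tet2/3* DKO mice. The authors trimmed reads with fastp 0.21.0, aligned them to mm10 (STAR 2.7.5a, GRCm38.100 transcripts) and deposited raw read counts per gene for each library, neither normalized nor pooled. The unstranded counts were used, because 49.8% to 50.2% of reads fell on either strand. The authors also deposited counts of reads per alpha clonotype, from a tool not given in the sources used here. The beta clonotype tables were not used. Symbols and coordinates came from GENCODE M21, which held 55141 of 55487 identifiers.

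Genotypes and replicate numbers came from the sample labels. Counts were tested with edgeR 4.0.16 in R 4.3.3 (quasi-likelihood test with the newer dispersion moderation, TMM scaling, filterByExpr by genotype, Benjamini-Hochberg adjustment over 13525 genes, threshold 0.01). Standard errors (SE) were obtained as the absolute log2 fold change over the root of the F statistic. CPM were scaled by TMM, the prior count was 2, and intervals are 95% Wilson. The test was tried on simulated data. The 7 members and all lists were chosen with earlier results of these data known. The pattern for gamma segments was widened after the counts were read, because some segments carry symbols that start with Trg. Named genes are the 7 members, gamma and delta segments with at least 10 counts in all, list genes past the threshold with up to 3 other abundant ones, and the 3 genes closest in pattern to the summed gamma constant genes and to *Sox13*. 1 gene of the B cell list is not reported here, for a reason unrelated to its values, and the counts for that list are over the genes reported. The remaining B cell and myeloid markers, *Il17a*, *Il17f*, *Il17re*, *Stard3nl* and *Amph* were named in addition, after their values were seen. Alternatives were DESeq2 1.42.0, its size factors, no filter, each strand column, legacy moderation, a threshold of 0.05, a replicate block and leaving out each library. Adding both strand columns was chosen after seeing the data.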

Additional observations from a re-analysis of the deposited data

How the results depend on the processing

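The number of genes past the threshold was 530, 1027 with DESeq2, 272 with a replicate block over the libraries numbered 1 and 2, 1173 at a threshold of 0.05, and between 110 (without WT replicate 2) and 1311 (without *Tet2/3* DKO replicate 1) when 1 library was left out. The other alternatives gave 517 to 560. The same numbers mark different mice, and the deviations of same-numbered libraries correlated at 0.0151 and 0.00446, so the block pairs nothing by design. The summed gamma constant genes lay between 3.83 (without *Tet2/3* DKO replicate 2) and 4.58 on the log2 scale with 1 library left out. No member changed direction under any alternative, but the members were chosen by their levels in these libraries, which every alternative reuses. *Sox13* ranged from -2.58 to -1.75 between the strand columns, *Cd163l1* from -1.47 to -0.94 and *Trdc* from 0.18 to 0.52 with 1 library left out. Some genes not past the threshold changed direction when 1 library was left out, with ranges of -0.16 to 0.19 for *Cd3g*, -0.0063 to 0.085 for *Cd27*, -0.16 to 0.38 for *Itgam*, -0.36 to 0.79 for *Trdv2-2*, -0.027 to 0.27 for *Cd3d*, -0.24 to 0.077 for *Trac*, -0.71 to 0.86 for *Egr2* and -1.97 to 1.99 for *Igkc*, which had 54 reads in *Tet2/3* DKO replicate 2 and 4 in replicate 1. *Itgam* was also -0.16 with the replicate block. Of the IL-17-type genes 7 rose with DESeq2, 8 at a threshold of 0.05, 2 with the first strand column and 1 with the replicate block, against 4. The causes were not tested. With 2 *Tet2/3* DKO mice, levels of about 20 counts per library or fewer are imprecise.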
